A study of Mus musculus with 2 samples.

Results

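The genes described here are *Ccl17* and *Ccl22*, which encode the chemokines that bind CCR4, and the receptor genes *Ccr4*, *Ccr7* and *Ccr8*. They were chosen by name, as 5 of the 31053 genes in the count matrices, by a rule that did not use their measured values. Earlier results of these data were known when the genes, gates and lists were chosen, so the choice was not blind to the data. The study asked how creatine acts on the immune cells of a B16-OVA tumor, a C57BL/6 mouse melanoma line that carries ovalbumin. The data comprised 1 droplet single-cell RNA library from mice given PBS (control) and 1 from mice given creatine by daily intraperitoneal injection (10.5 mg). Both groups were young adult male C57BL/6J mice, as far as the study's methods give it, bearing the same tumor, and 4 tumors were combined per group before live CD45.2+ cells were sorted and 10000 were loaded. The labels give a harvest on day 14, while the study's text in other places names an earlier day and a larger number of mice per group. The protocol field of the control library also describes the creatine injection, so the library was taken as control by its title and its treatment label, and every ratio below rests on that. With 1 pooled library per group no spread between mice can be measured, so no test was made. Intervals are 95% intervals, exact Poisson for levels, exact Clopper-Pearson for shares and exact conditional for ratios, and cover counting error only.

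CCL17 and CCL22 are made by dendritic cells (DCs) and macrophages and attract CCR4-bearing cells, above all regulatory T cells (Tregs), helper T cells and skin-homing T cells. CCR7 guides cells toward CCL19 and CCL21, and so carries mature DCs from tissue to the draining lymph node and keeps naive and central memory T cells moving through it. CCR8, whose mouse ligands include CCL1 and CCL8, is known as a receptor of Tregs inside tumors.

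*Ccl22* lies at chr8:94745590-94751699 and *Ccl17* at chr8:94810453-94812036, both on the plus strand (GRCm38, GENCODE M21), with a gap of 58753 bp that holds *Cx3cl1* and the pseudogene *Gnb1-ps3*. *Ccr4* lies at chr9:114490316-114504916 on the minus strand, *Ccr8* at chr9:120092114-120094906 on the plus strand and *Ccr7* at chr11:99144196-99155077 on the minus strand. All 5 are protein coding, and no other annotated gene overlaps any of them. The promoters of the 2 neighbouring ligand genes are shown because each gene was among the 5 most like the other across cell types. Each window runs from 250 bases before to 50 bases after the RefSeq start on GRCm38.p6 (*Ccl17*, chr8:94810203-94810502, plus strand; *Ccl22*, chr8:94745434-94745733, plus strand). Capitals mark TTAAATA, a run of letters picked after both windows had been read.
Ccl17: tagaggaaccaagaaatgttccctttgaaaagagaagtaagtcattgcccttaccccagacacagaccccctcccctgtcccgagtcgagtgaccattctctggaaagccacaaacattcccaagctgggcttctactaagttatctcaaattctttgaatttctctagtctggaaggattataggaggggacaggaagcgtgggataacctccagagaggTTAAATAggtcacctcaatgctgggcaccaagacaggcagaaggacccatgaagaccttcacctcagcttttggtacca
Ccl22: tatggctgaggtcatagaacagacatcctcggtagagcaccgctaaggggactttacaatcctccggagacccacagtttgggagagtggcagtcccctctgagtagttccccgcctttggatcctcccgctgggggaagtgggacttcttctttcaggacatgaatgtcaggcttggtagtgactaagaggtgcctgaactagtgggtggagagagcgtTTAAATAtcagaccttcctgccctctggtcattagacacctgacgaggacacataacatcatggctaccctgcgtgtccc
The run begins 29 bases before the start of *Ccl17* (position -29) and 30 bases before that of *Ccl22* (position -30). On either strand, 4.51% of 32851 mouse promoter windows of this length held it. The promoter table held 4 of the 5 genes, and the windows of *Ccr4* and *Ccr8* did not contain these letters. Both strands were also searched for GGGNNNTTC (the core of an NF-kB site), GAAANNGAA (the core of an interferon response element) and TATAAA. The only match among the 4 windows was 1 of GGGNNNTTC in *Ccl17* at position 10, and 14.0%, 8.56% and 13.6% of all windows held the respective letters. A match of letters is a description, not a binding site.

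The control library held 7649 barcodes and 80434564 unique molecular identifiers (UMIs, each a captured transcript molecule), and the creatine library 6503 and 72898494. Of these barcodes, 7241 and 6229 passed the filters, and the libraries shared 30 barcode sequences. Cells were gated on marker genes other than these 5, and 69.0% of control and 70.6% of creatine cells fell into 1 of 10 gates, named by the cell type their markers define with "-like" added. The mature DC-like gate held 35 control and 8 creatine cells, cDC1-like 65 and 30, cDC2-like 115 and 54, Treg-like 294 and 187, CD4 Tconv-like (conventional CD4 T cells) 174 and 199, and CD8 T-like 2285 and 1906. Of 33 check markers that the gates did not use, 32 were higher inside their gate than in all other cells in both libraries, the exception being *Sirpa* in control cDC2-like cells. Levels are given as CPM, the UMIs of a gene scaled to the same total of UMIs in every gate and library.

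*Ccr7* was highest in mature DC-like cells and next in B-like cells, *Ccl22* was highest in mature DC-like cells, *Ccl17* in mature DC-like and cDC2-like cells, *Ccr8* in Treg-like cells, and *Ccr4* in Treg-like and CD4 Tconv-like cells. Mature DC-like cells, 0.483% of control and 0.128% of creatine cells, held 35.8% and 20.9% of all *Ccr7* UMIs of their library. They held 49.0% of the *Ccl22* UMIs in control and 29.1% in creatine. No UMI of *Ccr4* or *Ccr8* was found in any mature DC-like or pDC-like cell of either library, though with 8 to 35 cells per gate and library the upper limits are wide. At the other end, *Ccr8* had 0 UMIs in 1390 control and 1014 creatine Mono/TAM-like cells (monocytes and tumor macrophages), which at a floor of 3 counts allows shares of cells with a UMI of up to 0.216% and 0.296%. Such a floor does not limit the share of cells that express the gene.

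**Figure D1:**
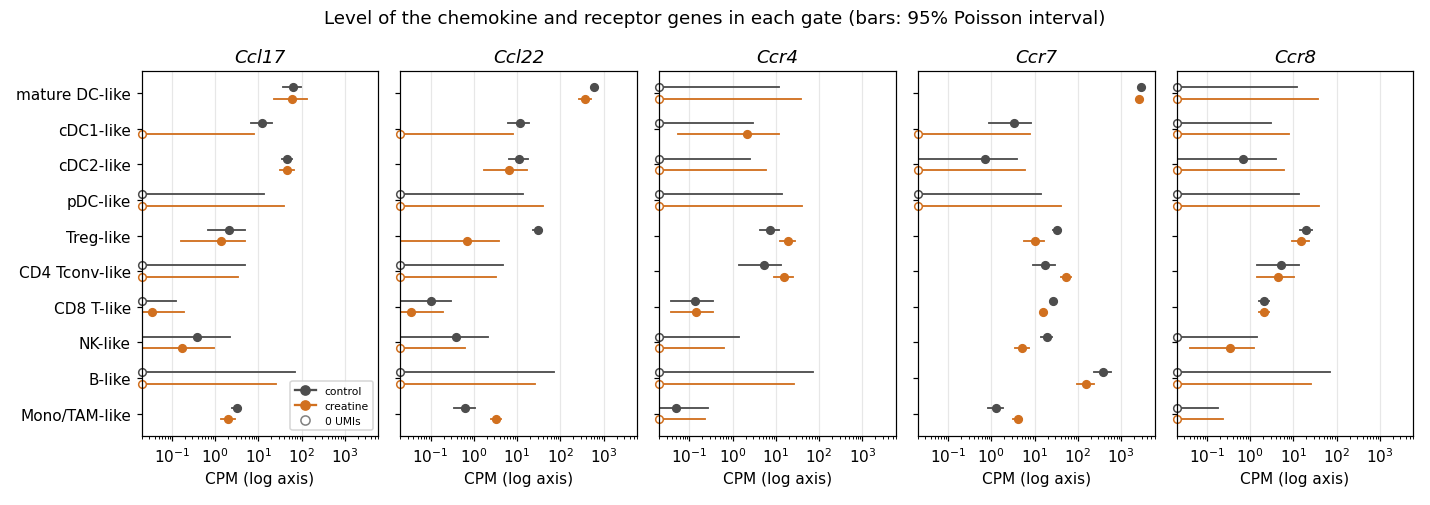
Level of each gene in CPM (log axis) in 10 marker gates, control in grey and creatine in orange; horizontal bars are 95% Poisson intervals and open circles mark gates with 0 UMIs. *Ccr7* and *Ccl22* peak in mature DC-like cells in both libraries, *Ccr4* and *Ccr8* in Treg-like and CD4 Tconv-like cells.

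Mature DC-like cells were gated on genes such as *Fscn1* (an actin-bundling protein of migrating DCs), and *Ccr7* itself was not used. *Ccr7* was found in 33 of 35 control cells and in 8 of 8 creatine cells. Its count per cell ran from 0 over a median of 27 to 95 UMIs in control, and the 8 creatine cells held 4, 6, 20, 30, 31, 44, 60 and 64 UMIs. All creatine cells lay within the range of the control cells. The level was 2849 CPM (2664 to 3044) in control and 2654 CPM (2340 to 2997) in creatine, a log2 ratio of creatine over control of -0.10 (-0.31 to 0.10). It exceeded the level of B-like cells by 2.88 on the log2 scale in control (2.24 to 3.59) and by 4.10 in creatine (3.47 to 4.80). In both libraries the level of this gate lay above that of every other gate.

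*Ccl22* was detected in 31 of 35 control and 6 of 8 creatine mature DC-like cells, with 0, 5 and 21 UMIs per cell as the lowest, median and highest in control and 0, 0, 2, 2, 3, 7, 10 and 13 in the creatine cells. The ranges of the libraries overlapped. In CPM the level was 615 (530 to 709) in control and 379 (267 to 523) in creatine, a log2 ratio of -0.70 (-1.25 to -0.18). Without the highest cell of each library the ratio was -1.04 (-1.72 to -0.41). Of the cells with *Ccl22*, 30 of 31 in control and 6 of 6 in creatine also held *Ccr7*. Since 33 of 35 and 8 of 8 cells of the gate held *Ccr7*, this overlap says little about the pair.

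*Ccl17* was rarer there, with 19 UMIs in 7 control cells and 6 UMIs in 3 creatine cells. Its level was 61.8 CPM (37.2 to 96.5) in control and 61.5 CPM (22.6 to 134) in creatine. The log2 ratio of -0.0070 had an interval from -1.62 to 1.37, so a difference within these bounds was not detectable at this depth. Of the cells with *Ccl17*, 6 of 7 in control and 3 of 3 in creatine also held *Ccl22*. In the whole gate 31 of 35 and 6 of 8 cells held *Ccl22*, so this overlap too says little. Of the 3 genes with at least 20 UMIs in the gate, 1 (*Ccl22*) was at least 1.5-fold lower in creatine and 0 were at least 1.5-fold higher, against 22.1% and 17.9% of all 2656 genes tested.

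**Figure D2:**
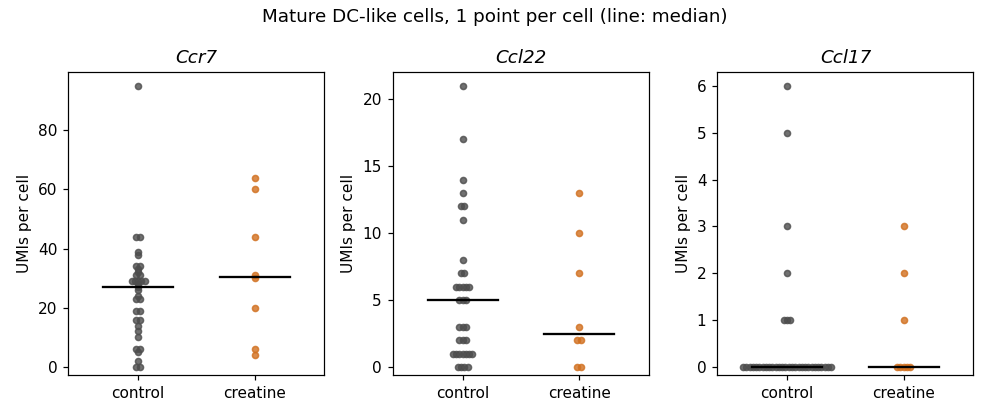
UMIs per cell of *Ccr7*, *Ccl22* and *Ccl17* in mature DC-like cells (35 control, 8 creatine), 1 point per cell and a line at the median. The creatine cells fall within the control range for all 3 genes.

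Other genes of DC maturation varied in both directions in these cells. Of 21 listed genes, 20 had at least 20 UMIs. Of these, 2 were at least 1.5-fold higher and 6 at least 1.5-fold lower in creatine, against 17.9% and 22.1% of all 2656 genes tested. The median log2 ratio of the listed genes was -0.08, beside -0.0097 over all genes tested. *Il12b*, which encodes the p40 subunit of IL-12, had the highest ratio of the list at 1.31 (0.82 to 1.79), with 273 CPM in control and 676 CPM in creatine. The lowest was *Cd200*, which encodes the ligand of an inhibitory myeloid receptor, at -1.39 (-1.96 to -0.87), with 888 CPM in control and 338 CPM in creatine. Markers of the subset of origin were sparse: 7 control cells held cDC1 markers only, 4 cDC2 markers only and 24 neither, against 3, 0 and 5 in creatine.

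In cDC2-like cells, gated on *Cd209a*, *Mgl2* and similar genes, *Ccl17* had the same CPM in both libraries but sat in very different numbers of cells. The control library held 66 UMIs in 18 of 115 cells (15.7%, 9.55 to 23.6), and the creatine library 29 UMIs, all in 1 of 54 cells (1.85%, 0.0469 to 9.89). The levels were 46.0 CPM (35.6 to 58.5) and 46.8 CPM (31.4 to 67.3), a log2 ratio of 0.03 (-0.66 to 0.68). Without the highest cell of each library, control kept 48 UMIs (33.5 CPM) and creatine 0. A floor of 3 counts in creatine then puts the log2 ratio at or below -2.77. When no UMI was allowed of the T, NK and B cell genes and macrophage genes that limit the DC gates, 30 control and 15 creatine cells were left and the log2 ratio was 1.39 (0.56 to 2.23). That creatine cell was among them, although it held 2 cDC1 markers and 1 Mono/TAM marker that these genes do not include. The ratio of this gene in cDC2-like cells therefore turned on 1 cell. Thinned to 2000 UMIs per cell, the shares were 7.02% (3.08 to 13.4) and 1.89% (0.0478 to 10.1), with overlapping intervals.

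Cells with many *Ccl17* UMIs were scattered over other gates too. In control cDC1-like cells 12 of 15 UMIs were in 1 cell, and in creatine 0 UMIs were found in 30 cells. In creatine Mono/TAM-like cells all 32 UMIs were in 1 of 1014 cells, a cell that also held 708 UMIs of MHC class II genes, 3 cDC2 markers and 3 Mono/TAM markers. In control Mono/TAM-like cells 65 UMIs were found in 19 of 1390 cells (1.37%, 0.825 to 2.13). Of these UMIs, 19 were in 1 cell with 69324 UMIs in all, 6 Mono/TAM markers, 3 cDC1 markers and 2 cDC2 markers. Of the 121 *Ccl17* UMIs of the creatine library, 50 were in 1 ungated cell, which also held 20 UMIs of *Ccl22*, 7 of *Ccr7* and 903 of MHC class II genes. Over all cells, 66 control cells (0.911%, 0.706 to 1.16) and 10 creatine cells (0.161%, 0.0770 to 0.295) held a *Ccl17* UMI. After thinning to 2000 UMIs, these shares were 0.272% (0.161 to 0.429) and 0.101% (0.0371 to 0.220), with overlapping intervals. CD8 T-like cells, which are not known to make it, gave a background of 0 of 2285 and 1 of 1906 cells, at median depths of 9670 and 11896 UMIs per cell. cDC2-like cells had 12600 and 10574.

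*Ccl22* in other DCs was low. cDC1-like cells held 14 UMIs in 6 of 65 control cells (11.5 CPM, 6.31 to 19.4) and 0 in 30 creatine cells (0 CPM). Set against a floor of 3 counts in creatine (6.44 CPM), the log2 ratio was at or below -0.84, but the counting interval of that bound reached 0 (-1.59 to 0.03), so no difference was shown. cDC2-like cells held 16 UMIs in 7 of 115 control cells (11.2 CPM, 6.37 to 18.1) and 4 UMIs in 3 of 54 creatine cells (6.46 CPM, 1.76 to 16.5), a log2 ratio of -0.79 (-2.83 to 0.84). Within control, mature DC-like cells exceeded cDC2-like cells in *Ccl22* by 5.79 on the log2 scale (5.05 to 6.62), and within creatine by 5.88 (4.40 to 7.83). In cDC2-like cells 2 genes of the 5 had at least 20 UMIs, and 1 (*Ccl22*) was at least 1.5-fold lower in creatine and 0 higher, against 12.8% and 13.1% of 7479 genes. In cDC1-like cells 0 of the 5 reached 20 UMIs, where 17.2% of 7012 genes were lower and 11.2% higher.

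Single cells also set *Ccl22* outside the DC gates. The control Treg-like sum of 72 UMIs (30.5 CPM) held 70 from 1 cell. That cell had 255 UMIs of MHC class II genes, 12 of *Ccr7*, 5 of the 8 mature DC markers, 12 of CD3 genes and 2 of *Foxp3*. An ungated control cell with 42781 UMIs held 31 of *Ccl22*, 35 of *Ccr7*, 61 of CD3 genes and 6 mature DC markers. In creatine Mono/TAM-like cells, 38 of 53 *Ccl22* UMIs and 35 of 65 *Ccr7* UMIs came from 1 cell with 5 mature DC markers and 4 Mono/TAM markers. No doublet caller was run, and whether these barcodes hold more than 1 cell was not tested.

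Among gated cells, *Ccr4*, which encodes the receptor of both chemokines, was found mainly in T cells with *Foxp3* or *Cd4*. Treg-like cells held 32.7% of its UMIs in control and 33.3% in creatine, and CD4 Tconv-like cells 7.69% and 20.2%. Ungated cells, whose type was not resolved, held 50% and 40.5%. In Treg-like cells 14 of 294 control cells (4.76%, 2.63 to 7.86) and 22 of 187 creatine cells (11.8%, 7.52 to 17.3) held a UMI. The levels were 7.21 CPM (4.20 to 11.5) from 17 UMIs and 19.0 CPM (12.6 to 27.4) from 28 UMIs, a log2 ratio of 1.40 (0.48 to 2.36). No cell held more than 3 *Ccr4* UMIs, so no single cell carried the difference. With at least 2 *Foxp3* UMIs and a *Cd4* UMI required, the ratio was 1.12 with an interval that reached 0 (-0.06 to 2.36). In CD4 Tconv-like cells 4 of 174 control cells (5.25 CPM, 1.43 to 13.4) and 11 of 199 creatine cells (15.2 CPM, 8.86 to 24.3) held *Ccr4*, a log2 ratio of 1.53 (-0.08 to 3.56).

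Thinned to 2000 UMIs per cell, the share of Treg-like cells with *Ccr4* was 2.23% in control and 3.96% in creatine, intervals that overlap (0.823 to 4.79 and 1.61 to 7.98). Median depth in this gate was 5152.5 UMIs in control and 5958 in creatine. Treg-like and CD4 Tconv-like cells could not be ordered by *Ccr4*, since the log2 ratio of the former to the latter was 0.46 (-1.16 to 2.49) in control and 0.32 (-0.60 to 1.28) in creatine. Both stood far above CD8 T-like cells, in which 4 of 2285 control and 3 of 1906 creatine cells held a UMI (0.175% and 0.157%). The background in Mono/TAM-like cells was 1 of 1390 and 0 of 1014 cells, at median depths of 11360 and 10656 UMIs, so the CD8 T-like share is read as near background.

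*Ccr8* had its highest CPM in the Treg-like gate in both libraries. It was found in 40 of 294 control cells (13.6%, 9.90 to 18.1) and 20 of 187 creatine cells (10.7%, 6.66 to 16.0). The levels were 19.9 CPM (14.6 to 26.5) and 14.9 CPM (9.35 to 22.6), a log2 ratio of -0.42 (-1.22 to 0.34), which did not separate the libraries. Against CD4 Tconv-like cells the Treg-like level was higher by 1.92 on the log2 scale in control (0.47 to 3.86) and by 1.74 in creatine (0.30 to 3.50). Against CD8 T-like cells it was higher by 3.26 (2.68 to 3.83) and 2.85 (2.07 to 3.58).

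CD8 T-like cells held *Ccr8* in 57 of 2285 control cells (2.49%, 1.90 to 3.22) and 54 of 1906 creatine cells (2.83%, 2.14 to 3.68), at 2.09 and 2.07 CPM. The log2 ratio was -0.01 (-0.55 to 0.53). That share lay above the Mono/TAM-like share of 0 and the NK-like shares of 0 of 578 and 2 of 948 cells. Because the gate is large, CD8 T-like cells held 31.4% of all *Ccr8* UMIs in control and 49.2% in creatine, more than the 24.2% and 18.3% in Treg-like cells. Ungated cells held 41.75% in control and 26.67% in creatine. Of the ungated cells, 59.1% and 55.4% had at least 2 CD3 UMIs, and their T cell type was not resolved. In CD4 Tconv-like cells 4 cells in each library held *Ccr8*, with 5.25 CPM (1.43 to 13.4) in control and 4.47 CPM (1.45 to 10.4) in creatine.

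**Figure D3:**
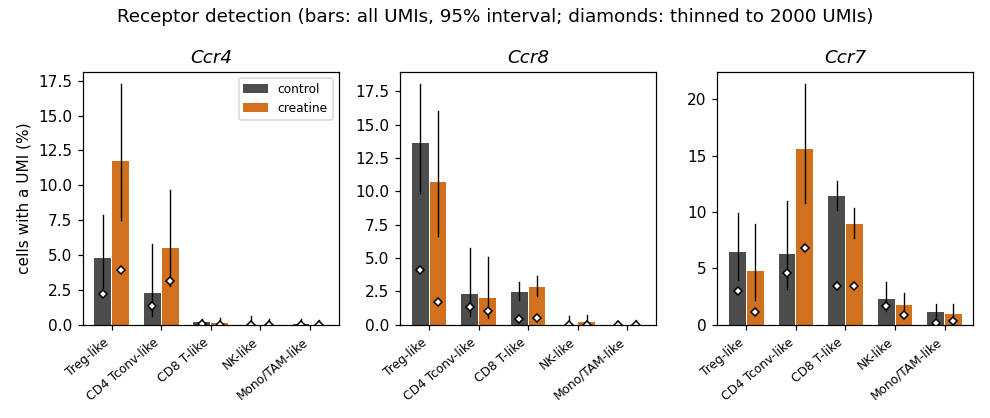
Share of cells (%) with at least 1 UMI of *Ccr4*, *Ccr8* and *Ccr7* in 5 gates, control in grey and creatine in orange, with 95% Clopper-Pearson intervals; diamonds give the share after thinning every cell to 2000 UMIs. The *Ccr4* share in Treg-like cells was 4.76% in control and 11.8% in creatine, and the *Ccr7* share in CD8 T-like cells was alike in both libraries once thinned.

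Each receptor was found in few T cells, so cells with more than 1 of them are few as well and were not tested. In Treg-like cells 2 of 40 control and 2 of 20 creatine cells with *Ccr8* also held *Ccr4*, which 4.76% and 11.8% of the gate held, and 3 and 0 also held *Ccr7*. In CD8 T-like cells 13 of 57 control cells and 5 of 54 creatine cells with *Ccr8* also held *Ccr7*, which 11.4% and 8.97% of the gate held. In CD4 Tconv-like cells 1 cell in each library held both *Ccr4* and *Ccr7*. At these depths a cell without a UMI may still express the gene.

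Treg-like cells with and without a *Ccr8* UMI were compared in the genes of effector Tregs, a comparison added after the data were seen. Of 17 listed genes, among them *Il2ra*, *Ctla4*, *Tnfrsf4* and *Icos*, 0 were at least 1.5-fold higher and 0 at least 1.5-fold lower in *Ccr8*-positive cells of both libraries, against 1.8% and 5.05% of 6837 genes. This count leaves out genes that passed 1.5-fold in 1 library only or in opposite directions. *Il2ra* was lower in *Ccr8*-positive cells in control, at -0.661 on the log2 scale (-0.988 to -0.347). In creatine it was higher, at 0.766 (0.435 to 1.088). Cells with a *Ccr8* UMI were deeper, with a median of 7884.5 against 4931.5 UMIs in control and 7616 against 5660 in creatine. In CD8 T-like cells 1 of the 17 genes was higher in both libraries (*Tnfrsf4*, the costimulatory receptor OX40, by 0.91 and 1.65 on the log2 scale) and 1 lower (*Il10*, on 1 and 4 UMIs in the positive cells), against 1.74% and 4.79% of 11231 genes. *Tnfrsf4* stood at 241 CPM in *Ccr8*-positive and 128 CPM in *Ccr8*-negative control cells, and at 264 and 84.3 CPM in creatine.

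*Ccr7* in T cells differed between the libraries in opposite directions in CD4 Tconv-like cells and in the other T cell gates. In CD4 Tconv-like cells 11 of 174 control cells (6.32%, 3.20 to 11.0) and 31 of 199 creatine cells (15.6%, 10.8 to 21.4) held it. The levels were 17.1 CPM (9.09 to 29.2) and 54.5 CPM (41.7 to 70.1), a log2 ratio of 1.68 (0.80 to 2.67). Once cells with *Il2ra* or *Ikzf2* were left out the ratio was 1.06 (-0.01 to 2.26). Of the 17 effector Treg genes, 15 had at least 20 UMIs in this gate. In creatine 0 of them were at least 1.5-fold higher and 7 lower, with a median log2 ratio of -0.50. *Il2ra* was lowest at -1.14 (-1.83 to -0.46) and *Gata3* highest at 0.45 (0.10 to 0.82). The gate excludes cells with a *Foxp3* UMI, and whether it held Tregs without one was not tested. Thinned shares were 4.61% (1.87 to 9.26) and 6.81% (3.67 to 11.4), at median depths of 3752 and 4820 UMIs before thinning. In this gate 2 genes of the 5 (*Ccr4* and *Ccr7*) had at least 20 UMIs, and both were at least 1.5-fold higher in creatine and 0 lower, against 8.89% and 10.4% of 7567 genes.

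In Treg-like cells *Ccr7* went the other way. Control held 79 UMIs in 19 of 294 cells (6.46%, 3.94 to 9.91) and creatine 15 UMIs in 9 of 187 cells (4.81%, 2.22 to 8.94). The levels were 33.5 CPM (26.5 to 41.7) and 10.2 CPM (5.69 to 16.8), a log2 ratio of -1.72 (-2.62 to -0.91). With every cell weighted equally the ratio was -0.80. After thinning to 2000 UMIs per cell, the shares were 2.97% (1.29 to 5.78) in control and 1.13% (0.137 to 4.02) in creatine, with overlapping intervals. A highest control cell held 12 UMIs together with 6 of the 8 mature DC markers, 11 CD3 UMIs and 5 *Foxp3* UMIs. The control cell with 70 *Ccl22* UMIs and 5 mature DC markers also held 12 *Ccr7* UMIs. Without 1 highest cell of each library the ratio was -1.93. Only 1 of these control cells was left out there, and the ratio without both was not computed. Of 4 genes with at least 20 UMIs in Treg-like cells, 1 (*Ccr4*) was at least 1.5-fold higher in creatine and 2 (*Ccr7*, and *Ccl22* through its 1 cell) lower, against 9.24% and 7.63% of 9056 genes. Of the 17 effector Treg genes, 3 were at least 1.5-fold higher in creatine and 0 lower, with a median log2 ratio of 0.17. The inhibitory receptor gene *Lag3* had the highest ratio at 1.04 (0.85 to 1.24), with 163 CPM in control and 336 CPM in creatine. The lowest was *Tigit* at -0.36 (-1.21 to 0.45). Of the 15 other chemokine receptors, 9 had at least 20 UMIs in Treg-like cells, of which 1 (*Ccr3*) was at least 1.5-fold higher and 0 lower, with a median log2 ratio of 0.37 beside 0.05 over all genes.

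CD8 T-like cells held *Ccr7* in 261 of 2285 control cells (11.4%, 10.2 to 12.8) and 171 of 1906 creatine cells (8.97%, 7.73 to 10.3). From 765 and 434 UMIs the levels were 26.2 CPM (24.3 to 28.1) and 15.2 CPM (13.8 to 16.7), a log2 ratio of -0.78 (-0.95 to -0.61). The size of that difference rested on how cells were weighted. With every cell given equal weight the ratio was -0.12, and thinned to 2000 UMIs the shares were 3.49% (2.77 to 4.33) and 3.44% (2.66 to 4.36). Control cells with *Ccr7* had a median of 13972 UMIs against 9358 in those without, while in creatine the medians were 9185 and 12210, and the part of depth in the difference was not tested. Of the 2 genes with at least 20 UMIs in this gate, 1 (*Ccr7*) was at least 1.5-fold lower in creatine and 0 higher, against 6.55% and 5.24% of 12480 genes. The background share of *Ccr7* in Mono/TAM-like cells was 1.15% and 0.986%.

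*Ccr7* in CD8 T-like cells went together with genes of lymph node homing in both libraries, a comparison added after the data were seen. All 9 of 9 listed genes were at least 1.5-fold higher in *Ccr7*-positive than in *Ccr7*-negative cells in both libraries and 0 lower, against 2.56% and 3.5% of 11231 genes. *Tcf7*, which encodes a transcription factor of naive and memory T cells, stood at 55.0 against 12.1 CPM in control and 143 against 16.6 CPM in creatine. *Klf2*, which encodes an activator of *S1pr1*, stood at 38.6 against 13.8 CPM and 210 against 33.9 CPM. Of the 15 other chemokine receptors, 10 had at least 20 UMIs in both libraries, of which 3 were higher and 2 lower. *Cxcr5*, the receptor of follicular homing, was higher in *Ccr7*-positive cells by 2.32 in control and 4.18 in creatine on the log2 scale, and *Cxcr6*, a receptor of tissue-resident T cells, lower, at -1.28 and -1.50. Among genes with at least 10 UMIs in positive and negative cells of both libraries, those with the highest ratio in the lower of the 2 libraries were *Igfbp4*, *Dapl1* and *Batf3*. *Igfbp4* and *Dapl1* are on the same list of 9 genes, so they are not a separate observation.

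CD8 T-like cells were then binned by how many of these 9 homing genes they held after thinning to 2000 UMIs. The *Ccr7* level was higher with each further gene in both libraries, although the control intervals for 1 and 2 genes overlapped. Median depth went the other way, from 11103 UMIs in cells with 0 to 5197.5 in those with 3 or more in control and from 14400 to 7086 in creatine. In control it was 13.3 CPM (11.9 to 14.8) in cells with 0 homing genes, 66.6 CPM (58.7 to 75.3) with 1, 90.4 CPM (73.8 to 110) with 2 and 146 CPM (118 to 180) with 3 or more. In creatine the levels were 5.05 CPM (4.14 to 6.11), 19.5 CPM (15.8 to 23.8), 41.5 CPM (30.9 to 54.6) and 144 CPM (123 to 167). In cells with 3 or more homing genes the libraries had nearly the same level, with a log2 ratio of -0.03 (-0.40 to 0.36). In cells with 0, 1 or 2 homing genes the pooled CPM was lower in creatine, with log2 ratios of -1.40 (-1.73 to -1.07), -1.77 (-2.12 to -1.43) and -1.12 (-1.64 to -0.62). Thinned to 2000 UMIs, the share of cells with *Ccr7* was 1.64% in control and 0.652% in creatine with 0 homing genes. With 1 it was 4.78% and 3.59%, with 2 it was 13.2% and 5.88%, and with 3 or more 16.0% and 21.8%. The intervals of these shares overlapped between the libraries in every bin. Cells with 3 or more made up 4.74% of control and 8.73% of creatine CD8 T-like cells. *Ccr8*, thinned in the same way, was found in 8 of 1647 control and 7 of 1227 creatine cells with 0 homing genes, and in 0 of 106 and 0 of 165 with 3 or more (up to 2.83% and 1.82% at a floor of 3 counts), too few to order the bins.

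**Figure D4:**
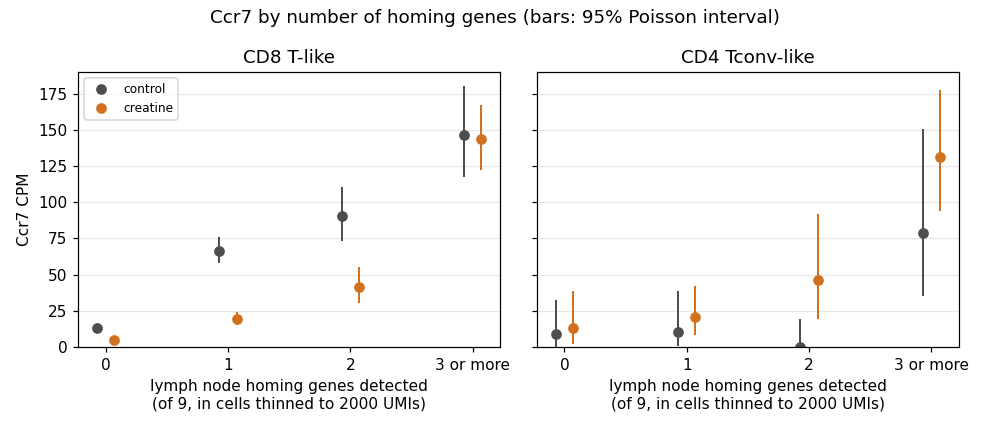
*Ccr7* level in CPM with 95% Poisson intervals, by the number of 9 lymph node homing genes detected per cell after thinning to 2000 UMIs, in CD8 T-like and CD4 Tconv-like cells. In CD8 T-like cells with 3 or more homing genes the level was 146 CPM in control and 144 CPM in creatine, while cells with fewer were lower in creatine. The thinned shares of CD8 T-like cells with *Ccr7*, not drawn here, had overlapping intervals in every bin.

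The homing genes themselves were higher in creatine CD8 T-like cells, with all 9 above 0, 2 of them at least 1.5-fold higher and 0 lower (5.24% and 6.55% over all genes), and a median log2 ratio of 0.50 beside 0.04 over all genes. *Klf2* had the highest ratio at 1.44 (1.29 to 1.58), at 18.0 CPM in control and 48.6 CPM in creatine, and *Il7r*, which encodes the IL-7 receptor alpha chain, the lowest at 0.24 (0.15 to 0.34). In CD4 Tconv-like cells 8 of the 9 had at least 20 UMIs, with 5 above 0, 4 at least 1.5-fold higher, 1 lower (8.89% and 10.4% over all genes) and a median of 0.57 beside -0.0099 over all genes. The lowest was *Satb1*, which encodes a chromatin organizer, at -0.72 (-1.13 to -0.31). In Treg-like cells, where the *Ccr7* level was lower in creatine, 7 of the 9 had at least 20 UMIs, with 6 above 0, 3 at least 1.5-fold higher, 0 lower (9.24% and 7.63% over all genes) and a median of 0.19 beside 0.05 over all genes. Among CD4 Tconv-like cells, 5 of 8 homing genes were at least 1.5-fold higher in *Ccr7*-positive cells of both libraries and 0 lower, against 2.89% and 9.14% of 4836 genes, on only 11 control and 31 creatine positive cells. Those with 3 or more homing genes held *Ccr7* at 79.0 CPM (36.1 to 150) in control and 131 CPM (94.3 to 177) in creatine, a log2 ratio of 0.73 (-0.33 to 1.95), and made up 18.4% and 33.5% of the gate.

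Other lymphocytes also held *Ccr7*. In B-like cells 11 of 27 control cells (40.7%) and 17 of 41 creatine cells (41.5%) held it, at 388 CPM (237 to 599) and 155 CPM (97.1 to 235). The CPM and the share of cells thus gave different pictures, on 20 and 22 UMIs and median depths of 2032 and 3192 UMIs, and no order of the libraries is read from them. In NK-like cells 13 of 578 control cells (2.25%) and 17 of 948 creatine cells (1.79%) held it, and 23 of the 49 control UMIs were in 1 cell. Within a library, the T cell gates took different orders. In control the *Ccr7* levels of Treg-like, CD8 T-like, NK-like and CD4 Tconv-like cells lay between 17.1 and 33.5 CPM, with CD4 Tconv-like cells not separated from CD8 T-like cells (log2 ratio -0.62, -1.53 to 0.17). In creatine CD4 Tconv-like cells exceeded CD8 T-like cells by 1.84 on the log2 scale (1.43 to 2.23).

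**Figure D5:**
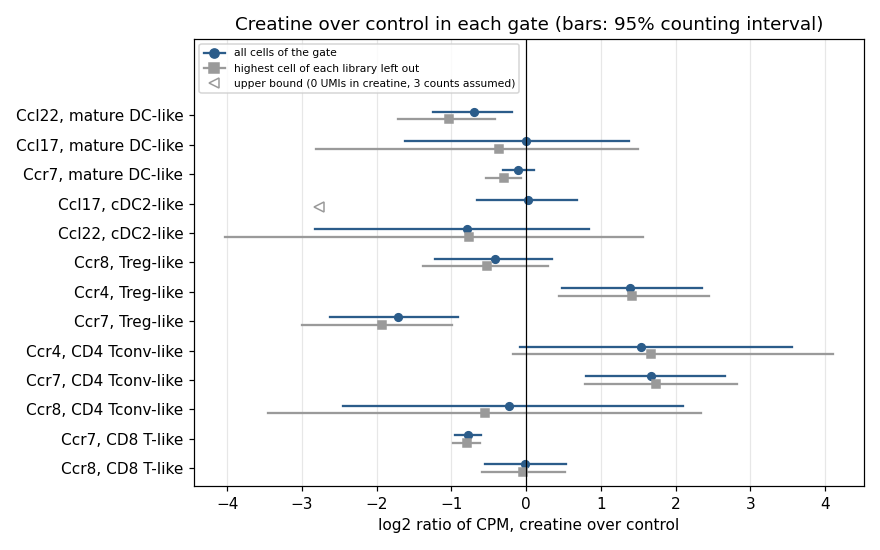
Log2 ratio of CPM, creatine over control, for the chosen pairs of gene and gate that had UMIs in both libraries (blue, with 95% counting intervals). Grey gives the ratio after the cell with the most UMIs in each library was left out, and the triangle is an upper bound. Other pairs, such as those in NK-like, B-like and Mono/TAM-like cells, are not drawn. *Ccr7* is positive in CD4 Tconv-like and negative in Treg-like and CD8 T-like cells, and *Ccl17* in cDC2-like cells shifts from 0.03 to a bound of -2.77.

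The partners of these receptors gave a mixed picture. The CCR7 ligand genes *Ccl19*, *Ccl21a*, *Ccl21b* and *Ccl21c* had 0 UMIs in all barcodes of both libraries. Known sources of the *Ccl21* products are stromal and lymphatic endothelial cells. The sort kept CD45.2+ cells, and the cause of the 0 counts was not tested. The *Ccl21* genes are near-identical copies and *Ccl19* also has 2 entries in the annotation, and reads that map to more than 1 of them are not counted by Cell Ranger, so their counts are uncertain. *Ackr2* and *Ackr4*, which encode scavenging receptors for such chemokines, had 0 UMIs in control and 1 each in creatine.

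*Ccl1*, a ligand gene of CCR8, was held at high counts by few lymphocytes. CD8 T-like cells held 1649 UMIs in 182 control cells (7.97%, 6.89 to 9.15) and 1682 UMIs in 89 creatine cells (4.67%, 3.77 to 5.72), so a like level (56.4 and 59.0 CPM) came from a smaller share of cells in creatine. The highest cell held 118 of these UMIs in control and 330 in creatine, so the creatine level rested in part on 1 cell. In CD4 Tconv-like cells 167 of 222 control UMIs and 30 of 63 creatine UMIs were in 1 cell each. In Treg-like cells 22 UMIs were found in 10 control cells and 1 UMI in 1 creatine cell. *Ccl8*, the other ligand gene, stood at 1620 CPM in control and 2190 CPM in creatine Mono/TAM-like cells, which held 85.3% and 90.0% of its UMIs, but in 647 of 1390 cells (46.5%) against 345 of 1014 (34.0%). It was also found at 1 to 4 UMIs in 17.8% of control and 14.7% of creatine CD8 T-like cells, which are not known to make it. Whether these UMIs are background was not tested.

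The genes most like each of the 5 were sought by the Pearson correlation of log2(CPM + 1) over 20 points, the 10 gates in both libraries, among 10981 genes with at least 200 UMIs, gate markers left out. The points share libraries and depth, so the values are descriptions. For *Ccr8* the nearest were *Izumo1r* (r = 0.978), which encodes folate receptor 4 of Tregs, *Odc1* (0.953), *Mpp2* (0.934), *Gm20275* (0.932) and *Spock2* (0.932). For *Ccr4* they were *Angptl2* (0.895), *Trat1* (0.886), *Izumo1r* (0.886), *Ccr8* (0.851) and *Odc1* (0.845). For *Ccr7* they were *Birc2* (0.891), *Ccdc6* (0.889), *Nae1* (0.889), *Kif21b* (0.877) and *Dip2b* (0.877). *Ccl17* and *Ccl22* were each the fourth nearest of the other (0.857), after *Nectin1* (0.894), *F11r* (0.874) and *Spire1* (0.871) for *Ccl17* and after *Gyg* (0.871), *Mpc1* (0.864) and *Ncoa7* (0.862) for *Ccl22*.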

How the data were processed

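The authors sequenced 1 Chromium 3′ library per group and deposited raw UMI counts per gene and cell made with Cell Ranger 3.0.2 (mm10, per the submitters' processing notes), without normalization. The annotation is not given in the sources used here. Cells were kept with at least 300 UMIs, 100 genes and at most 25% mitochondrial UMIs. Gates required 2 or 3 markers of the own type, for DCs 10 UMIs of MHC class II genes, for T cells 2 UMIs of CD3 genes, and at most 1 detected gene of a fixed exclusion list of other lineages (for DCs lymphoid and macrophage genes counted apart). The lists hold few DC genes and no mature DC marker, so a gated T cell or macrophage can hold several. They are rebuilt and can differ from the study's cell types. Doublets were limited by this rule only. Counts were summed per gate and scaled to CPM. For shares, cells were also thinned to 2000 UMIs, and shallower cells were left out. Genes with at least 20 UMIs over both libraries entered counts of 1.5-fold differences, with 0.5 added to both counts where either was 0. The 5 genes were named in every gate. Of a gene list, the highest and lowest ratio among genes with at least 50 UMIs were named, though not for every list and gate. Of genes most alike the nearest 5 were named. Other genes were named after their values were seen. A gene of the homing list is not reported here by name. The genes, gates and lists were chosen with earlier results of these data known. Alternatives covered gates, filters, scaling (TMM, edgeR 4.0.16 in R 4.3.3), cell weights and deep cells. Calculations used Python 3.11.15, numpy 2.4.6, scipy 1.17.1, pandas 2.3.3 and matplotlib 3.10.9, and the interval code was tested on simulated data.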

Additional observations from a re-analysis of the deposited data

Results flagged for a closer look

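*Ccr7* differed between the libraries in opposite directions in T cell gates: it was higher in creatine in CD4 Tconv-like cells and lower in Treg-like and in CD8 T-like cells. The log2 ratio of creatine over control in CD4 Tconv-like cells exceeded that in Treg-like cells by 3.40 and that in CD8 T-like cells by 2.46. The difference was not tested, since each group had 1 library. Both signs were kept when the cell with the most *Ccr7* UMIs was left out of each library. That was a condition for the flag, so it is not a separate check. The sizes depended on the processing. With every cell weighted equally the ratio was -0.12 in CD8 T-like and -0.80 in Treg-like cells. Thinned shares were 3.49% in control and 3.44% in creatine CD8 T-like cells. In Treg-like cells they were 2.97% and 1.13%, on 8 and 2 cells, with overlapping intervals. A control Treg-like cell with 5 mature DC markers and another with 6 each held 12 of the 79 *Ccr7* UMIs. In CD4 Tconv-like cells stricter gates gave 1.06 (-0.01 to 2.26), and thinned shares of 4.61% and 6.81% had overlapping intervals.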

How the results depend on the processing

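No paired analysis was possible because each group had 1 library. For the 14 ratios of a gene in a gate, 91 of 97 values under other gates, filters, scalings and cell weights and 12 of 14 with the highest cell left out, an alternative chosen after seeing the data, lay within the 95% interval of the reported ratio. The alternatives share many of their UMIs, and a wide interval holds almost any value, so these counts do not measure robustness. For *Ccr8* in CD4 Tconv-like cells, on 4 and 5 UMIs, the interval ran from -2.45 to 2.10. No ratio whose interval excluded 0 changed sign. Without cells that held any gene of the exclusion lists, the log2 ratio was 1.39 for *Ccl17* in cDC2-like cells and -0.58 for *Ccr7* in CD8 T-like cells, and the bound for *Ccl22* in cDC1-like cells was 0.10, while the reported bound of -0.84 had itself an interval that reached 0. With the highest cell left out, that bound was 0.033 and the bound for *Ccl17* in cDC2-like cells -2.77, both fixed by the loss of 1 cell. The mean of per-cell CPM gave -0.80 for *Ccr7* in Treg-like and -0.12 in CD8 T-like cells, and leaving out cells above the 95th percentile of UMIs gave -0.52 in CD8 T-like cells. The cause was not tested. Stricter gates took the intervals of *Ccr4* in Treg-like and *Ccr7* in CD4 Tconv-like cells to 0. For *Ccr7* in mature DC-like cells, TMM (-0.26) and leaving out the highest cell (-0.30) gave intervals below 0. The equal-weight ratio of *Ccl22* in cDC1-like cells could not be computed with 0 UMIs.

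Counts of genes past 1.5-fold depended on the minimum of UMIs by construction. At 20, 100 and 1 UMIs they were 1062, 130 and 5964 in mature DC-like cells, 1996, 296 and 5362 in cDC1-like, 1942, 440 and 5057 in cDC2-like, 1528, 380 and 5662 in Treg-like, 1463, 214 and 5239 in CD4 Tconv-like and 1472, 595 and 5527 in CD8 T-like cells. Of the 14 pairs of gene and gate, the share of cells was higher in creatine in 5 at 2000 UMIs, 6 at 1000 UMIs and 6 unthinned.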
